A study of Mus musculus with 9 samples.

Results

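The genes for the proteins of the cytosolic ribosome were followed in sorted neuronal nuclei of the mouse hippocampus. Members were the protein-coding genes whose symbol is Rpl or Rps followed by a number, together with Rplp0, Rplp1, Rplp2 and Rpsa. The Rps6k kinases, which phosphorylate ribosomal protein S6 and are no part of the ribosome, were left out. This gave 83 of the 48709 genes in the files, of which 51 belong to the large and 32 to the small ribosomal subunit. The choice used gene symbols and no measured value. It takes in the paralogs Rpl3l, Rpl7l1, Rpl10l, Rpl22l1, Rpl39l and Rps27l, and leaves out ribosomal protein genes such as Fau and Rpl36al, whose symbols follow another pattern.

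The 9 libraries came from mice of 6 months of age, 3 in each of 3 groups, on a C57BL/6J background. Wild-type (WT) and Tg4-42 mice on vehicle were compared with Tg4-42 mice that had received caffeine at 300 mg/l in the drinking water for 4 months, from 2 months of age. Tg4-42 mice carry a homozygous transgene in which the murine Thy1 promoter, active in neurons, drives human Aβ4-42 behind the signal peptide of thyrotropin-releasing hormone, a genotype that the labels call APP Transgenic. The labels give a treatment for the caffeine mice only, and that the other mice drank plain water comes from the study's design. The transgene has no entry of its own among the counted genes. The study attributes higher Trh and Thy1 in Tg4-42 mice to the construct, but these genes were not used here and the genotype was not checked. Caffeine-treated WT mice were not analysed here.

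Ribosomal proteins are made in the cytoplasm, imported into the nucleus and assembled with ribosomal RNA in the nucleolus. The small subunit reads the messenger RNA, and the large subunit forms the peptide bonds. In mammals their messenger RNAs begin with a run of pyrimidines, the TOP motif, through which LARP1 and the kinase mTOR hold back or release their translation. In neurons they also travel to dendrites and axons. Nuclear RNA holds the part of these transcripts that has not yet been exported, and is no measure of how much ribosomal protein a cell makes.

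Library totals lay between 9342945 and 16376922 counts, of which the members together held between 10266 and 22759. The 7 neuron markers on the marker list summed to between 6532 and 8809 CPM (counts after scaling each library to the same total with TMM factors). The astrocyte markers summed to 350 to 572 CPM, the oligodendrocyte markers to 258 to 518 CPM and the microglia markers to 27.2 to 46.5 CPM. Endothelial and choroid plexus markers summed to 19.4 to 149 CPM. Xist, which silences an X chromosome in females, had at most 30 counts and the Y-linked gene Ddx3y at least 1256 in each library. In RNA from many nuclei at once, fewer nuclei of a type and less RNA per nucleus cannot be told apart. WT mouse 2 stood apart for these genes, with the highest value of the 9 mice in 35 of 79 members, so the medians, the counts at an unadjusted p under 0.05 and the larger fold changes against WT are also given without it. Mice 1 and 2 of each group were on sequencing lane 6 and mouse 3 on lane 7.

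The bases around the annotated start of some members are shown first, because the TOP motif lies there. RefSeq promoter windows on GRCm38.p6 were at hand for 63 of the 83 members. Each line gives 15 bases before the start and 15 from it on, with the pyrimidine run in capitals (a C followed by at least 4 bases that are C or T, beginning no more than 10 bases from the start). Rps6, Rpl38, Rps15a, Rps18 and Rpl14 hold such a run, and Rps15, Rpl37 and Rpsa, which are described below for their values, hold none in this window.
Rps6 (chr4:86857353-86857382, minus strand): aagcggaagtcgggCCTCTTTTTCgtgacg
Rpl38 (chr11:114668565-114668594, plus strand): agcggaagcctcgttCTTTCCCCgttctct
Rps15a (chr7:118116133-118116162, minus strand): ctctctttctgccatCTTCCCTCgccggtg
Rps18 (chr17:33955651-33955680, minus strand): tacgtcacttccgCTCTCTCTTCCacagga
Rpl14 (chr9:120571502-120571531, plus strand): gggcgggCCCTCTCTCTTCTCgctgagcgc
Rps15 (chr10:80292416-80292445, plus strand): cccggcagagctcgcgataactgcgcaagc
Rpl37 (chr15:5116598-5116627, plus strand): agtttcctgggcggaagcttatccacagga
Rpsa (chr9:120127751-120127780, plus strand): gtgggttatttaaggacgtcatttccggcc

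A run of this kind was found at a start of 39 of the 63 members (61.9%) and of 34.4% of all 27025 genes with a promoter window. RefSeq and GENCODE place the starts of the genes printed differently, and a run just outside the search is missed. In the whole window of 300 bases, from 250 before the start to 50 after it and on both strands, CCGGAAG, the core that ETS factors such as GABP bind, was present in 26 of the 63 members (41.3%) and in 9.93% of all genes. Its reverse complement starts with bases that can belong to a pyrimidine run. AAGATGGC, the core bound by YY1, was present in 6 members (9.52%) and 3.19% of all genes, and TATAAA, the TATA box, in 7 members (11.1%) and 15.7% of all genes. These are matches of letters and not sites shown to be bound.

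The members lay on 19 chromosomes, 14 of them on chromosome 7 and 4 on the X chromosome (Rpl10, Rpl36a, Rpl39 and Rps4x). Their longest annotated transcripts were short, with a median of 1094 bases against 3121 bases over all genes tested. The introns of 30 members held 58 annotated small nucleolar RNA genes, which guide the modification of ribosomal RNA, and Rpl4 alone held 5 of them. Exons of 38 members overlapped the exons of another gene, and in 10 members this was over 20% of the exon bases, with 66.2% in Rpl35 (shared with Wdr38) and 62.3% in Rpl23a (shared with Tlcd1).

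Copies matter for how these genes are counted. The files list 270 ribosomal protein pseudogenes, of which 130 had at least 1 count. Windows of 50 bases, the length of the reads, were cut from the protein-coding transcripts of each member and looked up in all other annotated transcripts. In the median member 64.1% of the windows were found in no other gene, with a range from 4.90% in Rpl35 to 100%, as in Rpl3l and Rpl39l. Of the 83 members, 80 shared at least 1 window with another gene, and 19 had 80% or more of their windows to themselves. Values of the other members are uncertain to the extent that reads of copies were given to them or withheld from them.

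Per length, the members were far from equal in neuronal nuclei. Levels were set as CPM per kilobase of exon, as the mean over the 9 mice. The median member stood at 5.15 CPM per kilobase, and the middle members (from the lower to the upper quartile) spanned 2.49 to 8.72. Rpl4, a lining protein of the exit tunnel of the large subunit, led with 54.7 ± 7.37 CPM per kilobase (SD, n = 9), ahead of the next member by more than its spread.

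Rpl8, which lies by the peptidyl transferase centre, stood at 31.3 ± 4.92, the stalk protein gene Rplp1 with 27.1 ± 6.78, and Rpl41, which encodes a very short peptide, with 25.5 ± 2.28 CPM per kilobase (SD, n = 9 each). Each of these differed from the next one named by less than its spread. The order rests on the length used, and with the longest transcript in its place Rpl41 moved to 42.9 and Rpl8 to 41.7 CPM per kilobase. Of the windows of Rplp1, 40.0% were unshared.

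At the lower end stood Rpl23a with 0.675 ± 0.208 and Rpsa, which encodes the laminin receptor precursor of the small subunit, with 0.384 ± 0.109 CPM per kilobase (SD, n = 9). Only 14.3% of the windows of Rpl23a were unshared and 62.3% of its exon bases overlapped another gene, so its low value is uncertain. The paralogs Rpl3l, known from heart and skeletal muscle, and Rpl39l and Rpl10l, known from testis, were lower still. Rpl3l had between 1 and 8 counts in a mouse and Rpl39l at most 1. Rpl10l had 0 counts in each library, which allows a level of up to 0.183 to 0.321 CPM per library (3 counts, counting error only). These 3 genes and Rpl23a did not pass the filter on low counts, so 79 of the 83 members, 47 large and 32 small, were tested among 17361 genes. Their main copies were present, with 8.41 ± 0.536 CPM per kilobase for Rpl3, a core protein of the peptidyl transferase centre, and 5.01 ± 0.705 for Rpl10, which joins the large subunit late (SD, n = 9).

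**Figure D1:**
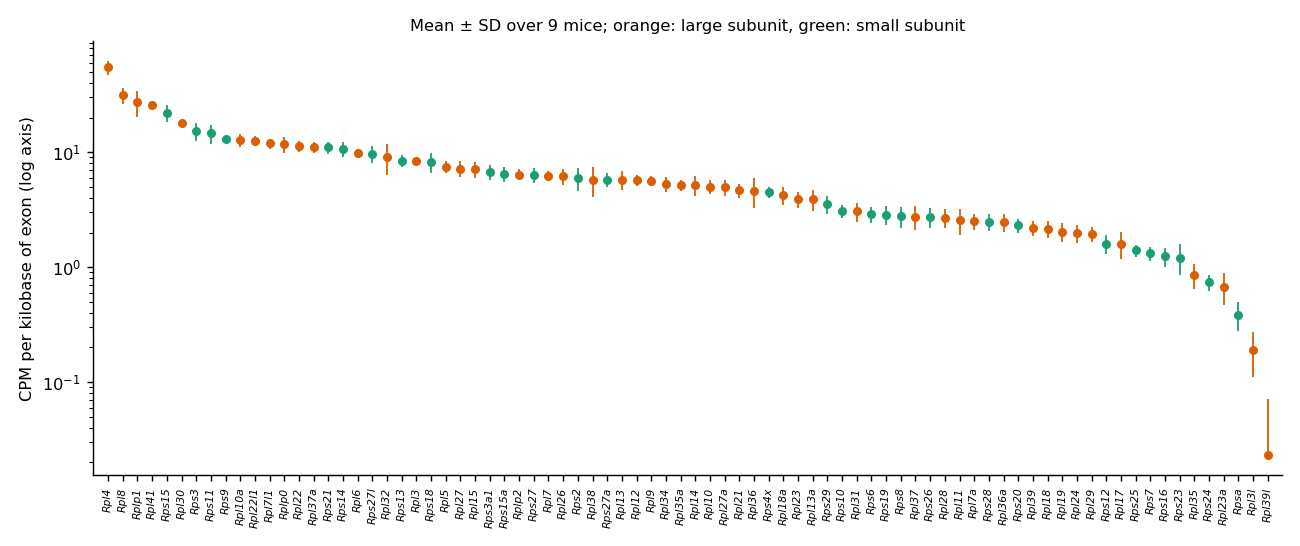
Level of the members with at least 1 count that are reported here, in CPM per kilobase of exon on a log axis, in falling order. Points are means over 9 mice and bars the SD (the lower bar of Rpl39l is left out because its SD exceeds its mean), in orange for the large and in green for the small subunit. Most members lie between 1 and 20, Rpl4 stands at 54.7, and the paralogs Rpl3l and Rpl39l lie at the low end.

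Together the members took up a small share of the nuclear counts, and this share was lowest in the Tg4-42 mice on vehicle. It was 0.122, 0.139 and 0.114% in the 3 WT mice, 0.110, 0.109 and 0.111% in the Tg4-42 mice on vehicle, and 0.122, 0.131 and 0.132% in the Tg4-42 mice on caffeine. Each Tg4-42 mouse on vehicle was below each of the 6 other mice, and this also held within lane 6 and within lane 7. The exact two-sided permutation test of 3 mice against 3 cannot give a p below 0.1, so no such order can pass a threshold of 0.05 here. Counting only the 19 members with mostly unshared windows, a choice made after seeing the data, gave the same order of the group means, at 0.0537% in WT, 0.0457% in Tg4-42 on vehicle and 0.0542% in Tg4-42 on caffeine. With these members WT and Tg4-42 on vehicle overlapped, since WT mouse 3 had 0.0473% and Tg4-42 mouse 3 on vehicle 0.0483%.

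The large subunit genes held 0.0805, 0.0889 and 0.0747% of the counts in WT, 0.0728, 0.0727 and 0.0734% in Tg4-42 on vehicle, and 0.0789, 0.0849 and 0.0852% in Tg4-42 on caffeine. The small subunit genes held 0.0417, 0.0501 and 0.0391% in WT, 0.0370, 0.0360 and 0.0371% in Tg4-42 on vehicle, and 0.0427, 0.0463 and 0.0464% in Tg4-42 on caffeine. In both subunits the Tg4-42 mice on vehicle did not overlap with either other group. The lowest WT mouse exceeded the highest of them by less than the spread among WT mice.

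The large subunit genes had 1.77 to 1.93 times the counts of the small subunit genes in WT, 1.97 to 2.02 times in Tg4-42 on vehicle and 1.83 to 1.85 times in Tg4-42 on caffeine. The ratio moves with a few strongly counted genes. Without the 5 most counted members of each subunit, among them Rpl4, Rpl30 and Rps3, a choice made after seeing the data, it was 2.503 to 2.56 in WT, 2.59 to 2.69 in Tg4-42 on vehicle and 2.36 to 2.57 in Tg4-42 on caffeine.

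**Figure D2:**
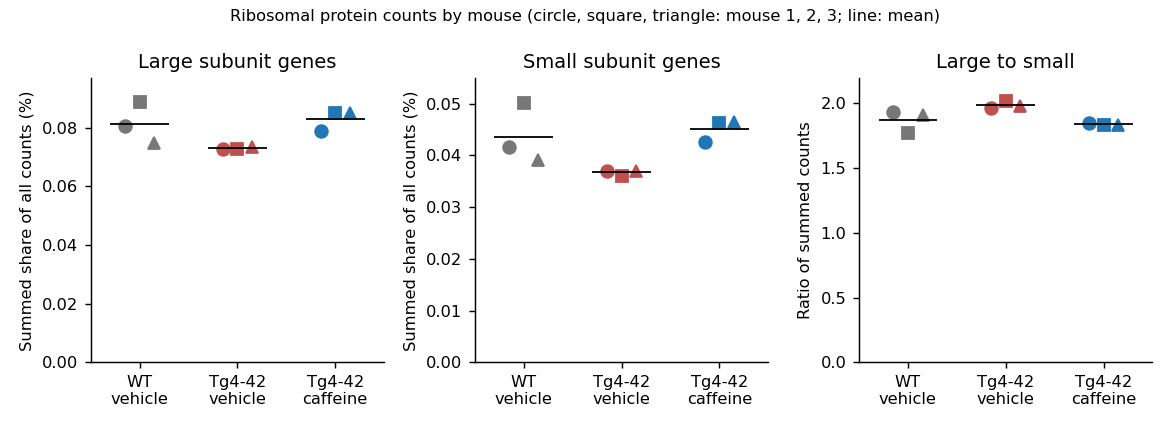
Summed share of all counts (%) held by large and small subunit genes, and the ratio of their summed counts, in each of the 9 mice. Points are mice (circle, square and triangle for mouse 1, 2 and 3) and lines are group means. The 3 Tg4-42 mice on vehicle lie below the other mice in both shares and above them in the ratio, and WT mouse 2 has the highest shares.

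Between Tg4-42 and WT mice, both on vehicle, most members lay lower in Tg4-42, by small amounts, and none was called by the test across all genes. Of the 79 members tested, 66 had a log2 fold change below 0 (83.5%), against 49.5% of all genes tested. The median log2 fold change was -0.18 over the large and -0.26 over the small subunit genes, against 0.00 over all genes. No member had an adjusted p under 0.05 in edgeR's quasi-likelihood test, where 0.0979% of all genes were called (0.0576% higher and 0.0403% lower). At an unadjusted p under 0.05, 7 members were lower (1.09% of all genes) and 0 higher (1.65% of all genes). DESeq2, limma-voom and edgeR's likelihood ratio test also called 0 members, against 26, 16 and 31 of all 17361 genes. In 15 members (19.0%) each Tg4-42 mouse lay below each WT mouse, which was the case for 3.16% of all genes, and in 0 members above, against 3.57% of all genes.

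This shift rested in good part on WT mouse 2. Without it the medians were -0.08 over the large and -0.12 over the small subunit genes, with 57 of 79 members below 0 and 3 lower at an unadjusted p under 0.05. That count was 12 without WT mouse 3 and 4 without mouse 2 of Tg4-42 on vehicle. The share of all genes at this p was not counted with a mouse left out. Without WT mouse 2 the log2 fold changes of most of the lowest genes described next were -0.69 for Rpl32, -0.42 for Rps19, -0.36 for Rps15, -0.33 for Rps15a, -0.33 for Rpl26, -0.30 for Rpl14 and -0.17 for Rpl37. Within lane 6, with 2 mice a group, the medians were -0.25 and -0.35, with 67 of 79 members below 0. Within lane 7, with 1 mouse a group, they were -0.06 and -0.06, with 45 members below 0 and 34 above. Of all genes 52.4% lay above 0 in lane 6 and 50.1% in lane 7.

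Rpl32, a large subunit gene (chr6:115805505-115808747) that hosts the small nucleolar RNA Snora7a in 20% of its exon bases, had the most negative difference. It stood at 10.4, 13.9 and 9.05 CPM in WT and at 6.39, 5.97 and 5.70 CPM in Tg4-42 on vehicle. The log2 fold change was -0.89 ± 0.21 (SE), with an unadjusted p of 0.00066 and an adjusted p of 0.382. The groups did not overlap, and the difference was the same in kind in each lane.

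Rps19, needed for the maturation of the small subunit and mutated in Diamond-Blackfan anaemia (chr7:24884371-24889806), stood at 14.7, 17.1 and 13.5 CPM in WT and at 9.96, 10.7 and 10.8 CPM in Tg4-42 on vehicle. Its log2 fold change was -0.52 ± 0.17 (SE, edgeR adjusted p = 1.00). Rps15a, whose start is shown above, stood at 43.5, 51.2 and 43.7 CPM in WT against 31.9, 38.3 and 33.4 CPM. Neither gene overlapped between the groups. Rps15a and the next gene, Rpl26, lie outside the named extremes and are shown, with their values known, for an unadjusted p under 0.05.

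Rpl26, a protein at the end of the exit tunnel, had a mean of 10.2 ± 1.37 CPM in WT and 7.50 ± 0.834 CPM in Tg4-42 on vehicle (SD, n = 3). Rps15, which the small subunit needs to leave the nucleus, stood at 13.7, 16.1 and 15.1 CPM in WT and 11.8, 10.3 and 11.5 CPM in Tg4-42. Rpl14 stood at 8.63, 12.1 and 8.73 CPM in WT and 7.03, 6.87 and 7.23 CPM in Tg4-42. None of these 3 genes overlapped between the groups, and Rpl14 was high in WT mouse 2 alone.

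Rpl37 was 4.16, 7.26 and 4.53 CPM in WT and 4.11, 3.66 and 3.85 CPM in Tg4-42 (log2 fold change -0.46 ± 0.25, SE), so that the groups were barely apart and WT mouse 2 was far above the rest. Rpsa, at 4 to 22 counts per mouse, had a log2 fold change of -0.49 ± 0.41 (SE) with groups that overlapped.

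Of the 13 members above 0, Rps23, a protein of the decoding centre, had the largest value, 0.53 ± 0.38 (SE), on 14 to 28 counts per mouse. Behind it were Rpl27 (0.17 ± 0.20), Rpl35 (0.12 ± 0.42), Rps4x (0.09 ± 0.21) and Rpl28 (0.08 ± 0.26), each smaller than its SE. The groups overlapped in each of these 5 genes.

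**Figure D3:**
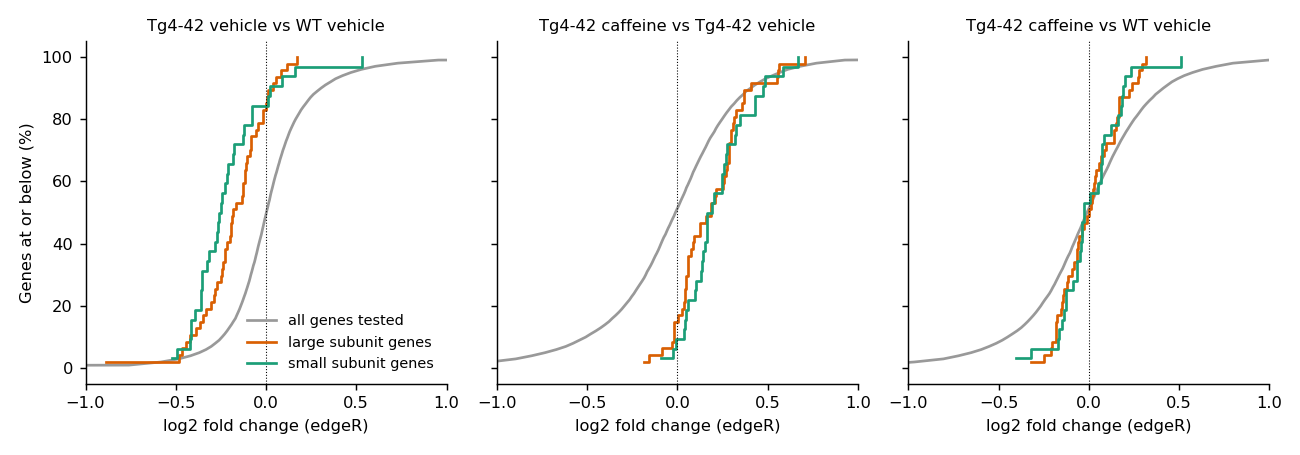
Cumulative distribution of log2 fold changes (edgeR) in the 3 comparisons, for 47 large subunit genes, 32 small subunit genes and all 17361 genes tested. The vertical axis gives the percentage of genes at or below each value. Over most of their range the member curves lie to the left of all genes for Tg4-42 against WT and to the right for caffeine against vehicle, and they lie near them at 0 for caffeine-treated Tg4-42 against WT. Values beyond 1 in either direction are not drawn.

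Between Tg4-42 mice on caffeine and on vehicle, most members lay higher with caffeine, again by small amounts and with none called. The comparison uses the same Tg4-42 mice on vehicle as the one above, so the values of both move together with these 3 mice. Here 69 of 79 members had a log2 fold change above 0 (87.3%), against 48.5% of all genes. The median was 0.18 over the large and 0.18 over the small subunit genes, against -0.01 over all genes. No member had an adjusted p under 0.05 in edgeR's test (0.881% of all genes called). DESeq2, limma-voom and the likelihood ratio test called 0 members as well, against 765, 618 and 669 of all 17361 genes.

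At an unadjusted p under 0.05, 10 members were higher (12.7%, against 7.15% of all genes) and 0 lower (9.82% of all genes). The count of higher members was 5 without caffeine mouse 2, 5 without caffeine mouse 3 and 6 without vehicle mouse 1. The share of all genes at this p was not counted with a mouse left out, so whether members still exceed it is not known. In 19 members (24.1%) each caffeine mouse lay above each vehicle mouse, against 10.4% of all genes, and in 0 members below, against 12.6% of all genes. Within lane 6 the medians were 0.20 and 0.17 with 65 members above 0 (48.9% of all genes). Within lane 7, with 1 mouse a group, they were 0.23 and 0.23 with 59 above 0 (48.5% of all genes). The medians differed with transcript length. Among the 1401 other genes with a longest transcript of up to 1000 bases the median was 0.08, and the 33 members in this class had 0.18. In the next longer class (3046 other genes) the other genes had 0.01 and the 32 members 0.26, and in the class above that (6953 other genes) the other genes had -0.04 and the 12 members 0.08. With a correction for the longest transcript, chosen after seeing the data, the medians were 0.11 and 0.16.

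Rps2, a small subunit protein near the entry of the messenger RNA (chr17:24718116-24721929), had the smallest adjusted p among the members. It stood at 8.44, 9.37 and 8.03 CPM on vehicle and at 11.03, 13.3 and 14.5 CPM on caffeine. The log2 fold change was 0.59 ± 0.20 (SE), with an edgeR adjusted p of 0.159. The groups did not overlap, but only 43.6% of its windows were free of other genes. Of the genes that share windows with Rps2, the pseudogene Rps2-ps10 had the most matches.

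Rps19, with 84.8% of its windows unshared, stood at 9.96, 10.7 and 10.8 CPM on vehicle and 14.0, 15.2 and 14.8 CPM on caffeine. This gave 0.48 ± 0.17 (SE, edgeR adjusted p = 0.160). Rps15 stood at 11.8, 10.3 and 11.5 CPM on vehicle and 13.1, 17.3 and 16.1 CPM on caffeine (0.47 ± 0.17, SE, edgeR adjusted p = 0.182). The groups did not overlap in either gene.

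Rpl38, known for its part in the translation of Hox messenger RNAs (chr11:114668524-114672331), had the largest difference of all members. It stood at 2.27, 2.37 and 2.49 CPM on vehicle and at 4.999, 3.46 and 3.23 CPM on caffeine, on 21 to 68 counts. The log2 fold change was 0.71 ± 0.29 (SE, edgeR adjusted p = 0.230). Caffeine mouse 1 was the highest, and without it the value was 0.49.

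Rpl32, the lowest gene against WT, stood at 9.12, 9.54 and 7.996 CPM on caffeine, above the 3 vehicle mice given above (0.56 ± 0.21, SE, edgeR adjusted p = 0.190). The X-linked gene Rpl36a stood at 3.57, 3.34 and 2.97 CPM on vehicle and 4.41, 5.05 and 5.07 CPM on caffeine (0.56 ± 0.23, SE). Only 14.5% of the windows of Rpl36a were unshared. Rpsa stood at 0.433, 0.963 and 1.28 CPM on vehicle and 1.54, 1.31 and 1.54 CPM on caffeine (0.67 ± 0.41, SE), with no overlap but on 4 to 21 counts, where the lowest mouse had 4.

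Other members with an unadjusted p under 0.05 were Rpl22, Rpl11, Rps14 and Rps18. Rps18, like Rps15 above, lies outside the named extremes of this comparison and is shown with its values known. Rpl22, which is dispensable in most tissues beside its paralog Rpl22l1, stood at 29.2, 29.0 and 29.7 CPM on vehicle and 33.6, 34.7 and 40.5 CPM on caffeine, against 32.4, 33.0 and 33.4 CPM in WT. The vehicle Tg4-42 mice were tightly grouped below the other 6. Rpl22l1 itself differed by 0.06 ± 0.16 (SE) between caffeine and vehicle.

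Rpl11, which binds MDM2 when assembly fails, stood at 5.19, 6.99 and 4.42 CPM on vehicle and 5.59, 9.06 and 9.84 CPM on caffeine. Rps18 stood at 18.6, 15.8 and 15.4 CPM on vehicle and 17.3, 21.2 and 28.4 CPM on caffeine, and the groups of both genes overlapped. Of the windows, 46.0% in Rpl11 and 20.6% in Rps18 were unshared. Rps14 stood at 19.6, 21.2 and 25.9 CPM on vehicle and 29.7, 27.3 and 27.8 CPM on caffeine, with no overlap.

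None of the 10 members below 0 with caffeine had an unadjusted p under 0.05. Rpl29 had the most negative value with -0.18 ± 0.30 (SE). Rpl30, which also guides selenocysteine insertion, stood at 61.9, 57.6 and 50.6 CPM on vehicle and 50.5, 52.8 and 49.0 CPM on caffeine, a difference of -0.16 ± 0.12 (SE). Rps12 (-0.09 ± 0.27), Rpl15 (-0.08 ± 0.19), Rps23 (-0.02 ± 0.37) and Rps20 (-0.01 ± 0.21) were next to 0.

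**Figure D4:**
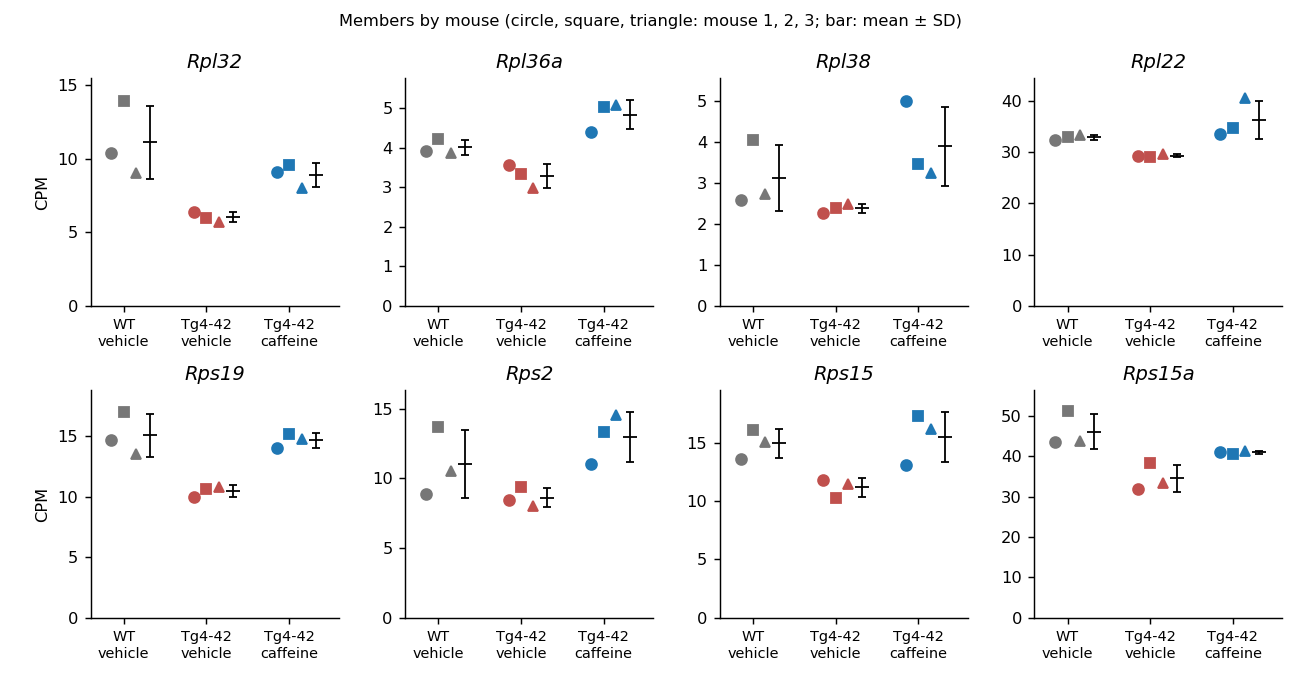
CPM of 8 members in each of the 9 mice, on axes that start at 0, with mean ± SD of each group (n = 3) beside the points. In Rpl32, Rpl36a, Rpl38, Rpl22, Rps19, Rps15 and Rps15a the 3 Tg4-42 mice on vehicle lie below all WT and all caffeine mice, and in Rps2 they lie below the caffeine mice while overlapping with WT. The 8 genes were picked with these values known.

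Between Tg4-42 mice on caffeine and WT mice, the members were spread about 0. A log2 fold change above 0 was found in 39 of 79 members (49.4%), against 48.5% of all genes, and the medians were 0.00 over the large and -0.03 over the small subunit genes, against -0.01 over all genes. No member was called by edgeR (0.415% of all genes), and 0 members had an unadjusted p under 0.05 in either direction (6.78% of all genes higher and 8.65% lower). DESeq2, limma-voom and the likelihood ratio test called 0 members, against 568, 106 and 499 of all 17361 genes. The groups did not overlap in 2 members higher with caffeine (9.14% of all genes), Rpl22 and Rpl36a, and in 2 lower (9.67% of all genes), Rpl30 and Rps15a. These medians turn with WT mouse 2: without it they were 0.07 and 0.11, with 54 of 79 members above 0 and 0 at an unadjusted p under 0.05 in either direction. Without caffeine mouse 1, 1 member was higher at that p, and the share of all genes was not counted with a mouse left out. Within lane 6 the medians were -0.10 and -0.08 with 25 members above 0 (49.3% of all genes). Within lane 7 they were 0.09 and 0.16 with 59 above 0 (50.3% of all genes).

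The largest differences from WT were small against their error. Rpl38 (0.32 ± 0.28), Rpl17 (0.29 ± 0.34) and Rpl13 (0.28 ± 0.19) led the large subunit on the log2 scale, and Rps23 (0.51 ± 0.38) and Rps2 (0.23 ± 0.20) the small subunit. On the other side stood Rpl32 (-0.32 ± 0.20), Rpl18 (-0.25 ± 0.21) and Rpl39 (-0.21 ± 0.27), and Rps12 (-0.40 ± 0.26), Rps24 (-0.32 ± 0.23) and Rps15a (-0.17 ± 0.13), all with SE. The smallest edgeR adjusted p among the members was 0.468, for Rpl32. All these fold changes include WT mouse 2. With single mice left out, Rpl32 ranged from -0.446 to -0.125, Rpl18 from -0.381 to -0.0453 and Rps23 from 0.299 to 0.681.

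Members with a known particular role come next. Rps6, the substrate of S6 kinase and a common marker of neuronal activity when phosphorylated, stood at 4.71, 5.18 and 4.07 CPM in WT, 3.25, 4.49 and 3.77 CPM in Tg4-42 on vehicle and 4.85, 5.39 and 5.38 CPM in Tg4-42 on caffeine. The caffeine mice lay above the vehicle Tg4-42 mice (0.43 ± 0.23, SE, edgeR adjusted p = 0.374), which overlapped with WT. Only 15.4% of its windows were unshared.

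Of the stalk, which recruits the GTPases of translation, Rplp1 had -0.42 ± 0.22 in Tg4-42 against WT and 0.27 ± 0.22 with caffeine, Rplp0 -0.22 ± 0.19 and 0.04 ± 0.19, and Rplp2 -0.20 ± 0.17 and 0.06 ± 0.17 (log2 fold changes with SE). Rplp1 was 12.6, 21.9 and 11.6 CPM in WT, so that mouse 2 again set the difference. Of the pair that binds MDM2, Rpl5 had -0.12 ± 0.16 and 0.09 ± 0.16, and Rpl11 is given above.

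Rps3, also a DNA repair protein, stood at 63.2, 97.7 and 58.2 CPM in WT and 65.4, 54.4 and 68.9 CPM in Tg4-42 on vehicle, overlapping but for mouse 2. Rpl10 (-0.02 ± 0.21 and -0.02 ± 0.21), Rpl3 (-0.08 ± 0.14 and 0.09 ± 0.14), Rps25, which some viral messages need for initiation (0.01 ± 0.25 and 0.06 ± 0.25), and Rps27a, made as a fusion with ubiquitin (0.02 ± 0.20 and 0.17 ± 0.20), were near 0 in both comparisons. Rpl13a, a part of the GAIT complex when released from the ribosome, had -0.20 ± 0.24 and 0.37 ± 0.24. Of the paralogs Rps27 and Rps27l, Rps27 had -0.23 ± 0.22 and 0.16 ± 0.23, and Rps27l -0.25 ± 0.21 and 0.32 ± 0.21.

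Genes that work with the ribosomal proteins were set beside them. A list of 22 other genes with TOP messenger RNAs held mostly translation genes, such as elongation factors, but also Hnrnpa1, Cct4, Nap1l1 and Npm1. Npm1 is counted among the assembly factors below as well. Of the 22 genes, 18 were below 0 in Tg4-42 against WT with a median of -0.13. With caffeine 13 were above 0, with a median of 0.02. Eef1a1, the main elongation factor, had the most negative value against WT, -0.32, and Eif3f the largest with caffeine, 0.52. None of them was called in either comparison. Summed, the 22 genes stood at 1310, 1491.5 and 1244 CPM in WT and at 1247, 1207 and 1320 CPM in Tg4-42 on vehicle. Eef1a1 stood at 59.5, 74.9 and 45.6 CPM in WT and at 46.3, 45.7 and 52.5 CPM in Tg4-42 on vehicle. In both cases the groups overlapped and WT mouse 2 was the highest. The companion lists were not run without this mouse.

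Of 16 host genes of small nucleolar RNAs, many of which are TOP transcripts too, 12 were below 0 in Tg4-42 with a median of -0.13. With caffeine 14 were above 0 with a median of 0.20, and 0 were called in either comparison. The summed CPM of all 17 host genes did not rise with caffeine. Its mean was 8215 ± 723 on caffeine and 8890 ± 204 on vehicle (SD, n = 3), and the groups overlapped. Snhg12 had the most negative value in Tg4-42 (-0.32) and the largest with caffeine (0.75, edgeR adjusted p = 0.120), while Snhg3 had the largest in Tg4-42 (0.40) and the most negative with caffeine (-0.19). The 78 mitochondrial ribosomal protein genes, which serve the separate ribosomes of mitochondria, were near 0 with medians of -0.04 and 0.04 and 0 called. The 10 mitochondrially encoded genes tested had medians of 0.16 and -0.06.

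Ribosome assembly factors (42 genes, medians -0.05 and -0.01) and TOR and S6 kinase signalling genes (22 genes, medians -0.01 and 0.05) were near 0 as well, with 0 called. Among the assembly factors Las1l (-0.29) and Polr1b (0.23) were the extremes in Tg4-42, and Polr1b (-0.34) and Rrs1 (0.54) with caffeine. Among the signalling genes these were Eif4ebp1 (-0.25) and Rps6ka6 (0.38), and Deptor (-0.33) and Eif4ebp2 (0.54). Of the 4 ribosomal protein genes outside the symbol rule that were tested, 3 were above 0 with caffeine, with a median of 0.17. The shift of the cytosolic members was not tested against that of any other list.

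**Figure D5:**
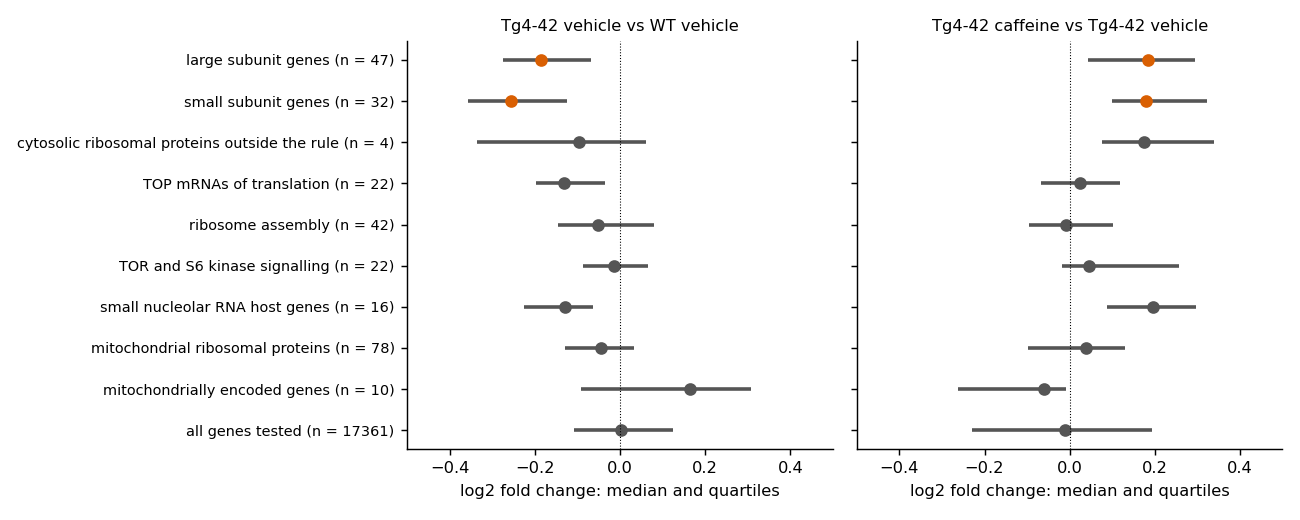
Median (point) and quartiles (bar) of log2 fold changes for the members and the companion gene lists, for Tg4-42 against WT on vehicle and for caffeine against vehicle in Tg4-42. The numbers of genes tested stand beside each list. The large and small subunit genes (orange) have medians of -0.18 and -0.26 on the left and 0.18 on the right, and mitochondrial ribosomal proteins and all genes lie near 0 in both.

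Markers of several hippocampal cell types moved between the same groups. With caffeine, 9 of 10 dentate granule cell markers were above 0 with a median of 0.67, and Plk5 and Stxbp6 rose. All 10 interneuron markers (median -0.48, with Slc32a1, the vesicular transporter of GABA, called lower), 7 of 8 astrocyte markers (-0.67), all 9 oligodendrocyte markers (-0.62) and all 8 microglia markers (-0.46) were below 0. Other lists were split. The CA pyramidal markers had 5 above and 6 below 0 (median -0.04), and the neuron markers 3 above and 4 below (-0.01). Of the 4 endothelial and choroid plexus markers tested, 2 were above and 2 below 0 (-0.89). The summed dentate markers were 976 to 1434 CPM in Tg4-42 on vehicle and 1653 to 2062 CPM on caffeine, against 1147 to 1398 CPM in WT. The summed interneuron markers were 1325 to 1907 CPM on vehicle and 1006 to 1274 CPM on caffeine, and the summed oligodendrocyte markers 367 to 518 CPM and 258 to 369 CPM. No defining glial marker sum was at 0. Between Tg4-42 and WT on vehicle 9 of 11 CA pyramidal markers were below 0 (median -0.13), and 8 of 9 oligodendrocyte (0.23), 7 of 8 microglia (0.24), 6 of 8 astrocyte (0.09) and 9 of 10 interneuron markers (0.25) were above 0, with a median of 0.02 for the dentate markers and 0 of these markers called. What part this mix of nuclei has in the values of the ribosomal protein genes was not tested.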

How the data were processed

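RNA was sequenced from NeuN-sorted nuclei of 9 mice. The authors aligned single-end reads of 50 bases to mm10 with STAR and deposited the whole counts that featureCounts gave on the exons of each gene, without normalization. Tool versions, annotation and strand setting were not given in the sources used here. Symbols and positions came from GENCODE M21 (GRCm38), found for 48349 of 48709 genes. Low genes were removed (minimum count 10, minimum total 15), and the 9 libraries were scaled by TMM and fitted together with the quasi-likelihood test of edgeR 4.0.16 (R 4.3.3), with Benjamini-Hochberg adjustment over all 17361 genes and a threshold of 0.05. SE were computed from the F statistic, and log values used a prior count of 2. Named members were the 3 highest and 3 lowest fold changes per subunit and comparison, the 5 highest and 5 lowest levels, and a list of known roles. Some of these genes are not reported here. Members and lists were chosen with earlier results of these data known. The models were tested on simulated data. The p-values measure the spread between these mice. The labels state 6 mice per group for nuclei isolation and the study 3. Alternatives were DESeq2 1.42.0, limma-voom 3.58.1 with quality weights, other scalings, filters, corrections and samples.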

Additional observations from a re-analysis of the deposited data

How the results depend on the processing

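No member was called in any comparison under any alternative, nor with any mouse left out. Leaving out each mouse in turn, the median log2 fold change of the large subunit genes lay between -0.222 and -0.0784 for Tg4-42 against WT, between 0.146 and 0.234 for caffeine against vehicle, and between -0.0684 and 0.0705 for caffeine-treated Tg4-42 against WT. For the small subunit genes these ranges were -0.351 to -0.125, 0.180 to 0.238 and -0.0755 to 0.105. Leaving out WT mouse 2 gave the values nearest to 0 for Tg4-42 against WT. With the members of mostly unshared transcripts, chosen after seeing the data, the large subunit median of caffeine-treated Tg4-42 against WT was -0.0808 over 7 genes, and the summed shares of such members were 0.0537, 0.0457 and 0.0542% in WT, Tg4-42 on vehicle and Tg4-42 on caffeine. With TMM-scaled totals the mean share in Tg4-42 on vehicle was 0.111%.

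Members near 0 changed sign. For caffeine against vehicle, Rps20 was 0.0184 with the correction for exon length, 0.0237 with that for the longest transcript (chosen after seeing the data), 0.0300 with that for GC content, 0.00183 with DESeq2, 0.0368 with limma-voom and 0.00583 without a filter, and Rps23 was 0.0624 with limma-voom. With single mice left out, Rps20 ranged from -0.229 to 0.142, Rps23 from -0.242 to 0.192, Rps12 from -0.182 to 0.0478 and Rpl15 from -0.187 to 0.0407, and, for Tg4-42 against WT, Rpl28 from -0.181 to 0.219, Rpl35 from -0.103 to 0.335 and Rps4x from -0.0215 to 0.207.

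Replicate numbers follow the order of the samples and are not known to pair mice. With the replicate block 0 members were called, and 16, 187 and 82 genes in all against 17, 153 and 72. Deviations of same-numbered mice correlated at 0.14 to 0.19 in each of the 3 pairs of Tg4-42 and WT mice on vehicle, where each mouse correlated best with its own number. The other comparisons did not show this. Same numbers gave 0.15, 0.18 and -0.17 for caffeine against vehicle, and -0.17, 0.01 and -0.11 for caffeine-treated Tg4-42 against WT. With the lane as a covariate, calls for caffeine against vehicle fell to 9 genes, and leaving out mouse 3 of either group gave 0. Counts of all genes called moved more with other choices. For Tg4-42 against WT, caffeine against vehicle and caffeine-treated Tg4-42 against WT they were 26, 765 and 568 with DESeq2, 16, 618 and 106 with limma-voom, 31, 669 and 499 with the likelihood ratio test (chosen after seeing the data) and 74, 987 and 860 without a filter. The uniqueness of windows in the whole genome was not run, since only transcripts were at hand.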
